A study of Homo sapiens with 22 samples.

Results

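BJ fibroblasts, an established line of human newborn foreskin fibroblasts, were described here as they stood on day 0 (D0), before the first reprogramming transfection. The subset was selected on measured values: D0 cells with at least 1000 genes detected and at most 10% of UMIs on mitochondrial genes were kept, and of these the cells with 0 UMIs of MKI67 and TOP2A together were taken. They are called double-negative cells. A UMI, a unique molecular identifier, marks 1 captured RNA molecule. The rule took 3492 of 6142 kept cells in pool A and 2439 of 4634 in pool B, that is 5931 of 10776 kept D0 cells and of 41975 kept cells in the whole series.

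The D0 cells, labelled control, had grown in DMEM with foetal bovine serum inside fibronectin-coated microfluidic chambers. From D3 to D15, cells of the same line were captured on 7 further days after transfections with non-modified mRNAs of POU5F1, SOX2, KLF4, MYC, LIN28 and NANOG, in hypoxia and in reprogramming medium. From D9 on, transfection had ended and a pluripotency medium was used instead. Each day had 2 pools, A and B, each mixing cells of 4 chips, and all cells were frozen before capture by droplet single-cell RNA sequencing. Medium, transfection, time and library differ together between D0 and the later days and cannot be told apart. The study's methods place the whole process in a hypoxia incubator and do not state the exposure of D0 cells. Time in hypoxia therefore cannot be told apart from these either. All pools come from 1 cell line, so p-values measure the spread between pools of chips.

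Dermal fibroblasts build and remodel a collagen-rich matrix and secrete proteases, protease inhibitors, growth factors and their binding proteins. MKI67 and TOP2A mRNA peak in G2 and mitosis, so a cell without either can be in G1, in early S phase or arrested. Interferon-stimulated genes are switched on together through the interferon-stimulated response element in their promoters, and within a culture the response can be limited to few cells.

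Interferon-stimulated genes were among the genes that varied most between the double-negative cells, so the promoters of 5 of them are shown for the motif they share. Each is the 250 bases before a RefSeq transcription start on GRCh38.p14. Of the 2 windows of IFIT3 and the 3 of MX1 the one with most matches is shown. Sequences are written in the direction of transcription, and capitals mark the letters TTTCNNTTTC on either strand. The ISG15 window lies at chr1:1013247-1013496 on the plus strand and that of IFI6 at chr1:27672193-27672442 on the minus strand. Those of IFIT1 (chr10:89392373-89392622), IFIT3 (chr10:89327747-89327996) and MX1 (chr21:41431800-41432049) lie on the plus strand.
ISG15: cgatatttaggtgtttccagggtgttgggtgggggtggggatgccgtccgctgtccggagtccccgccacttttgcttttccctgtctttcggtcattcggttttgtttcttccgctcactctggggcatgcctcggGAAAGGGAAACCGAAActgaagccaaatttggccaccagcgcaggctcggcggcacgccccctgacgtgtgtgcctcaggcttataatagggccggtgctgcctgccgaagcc
IFI6: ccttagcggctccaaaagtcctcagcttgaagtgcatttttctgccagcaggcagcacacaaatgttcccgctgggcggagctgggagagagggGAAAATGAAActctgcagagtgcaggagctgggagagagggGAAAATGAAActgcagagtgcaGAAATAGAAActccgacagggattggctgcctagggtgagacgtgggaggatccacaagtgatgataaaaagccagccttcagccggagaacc
IFIT1: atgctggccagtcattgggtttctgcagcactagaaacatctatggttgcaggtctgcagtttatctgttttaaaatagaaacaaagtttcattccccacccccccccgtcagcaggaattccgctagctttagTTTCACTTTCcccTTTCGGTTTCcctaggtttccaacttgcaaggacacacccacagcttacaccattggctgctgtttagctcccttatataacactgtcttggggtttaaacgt
IFIT3: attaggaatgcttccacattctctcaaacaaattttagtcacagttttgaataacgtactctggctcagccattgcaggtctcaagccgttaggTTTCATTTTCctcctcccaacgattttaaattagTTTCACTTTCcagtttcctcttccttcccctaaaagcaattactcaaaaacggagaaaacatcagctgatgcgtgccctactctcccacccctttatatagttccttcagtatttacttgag
MX1: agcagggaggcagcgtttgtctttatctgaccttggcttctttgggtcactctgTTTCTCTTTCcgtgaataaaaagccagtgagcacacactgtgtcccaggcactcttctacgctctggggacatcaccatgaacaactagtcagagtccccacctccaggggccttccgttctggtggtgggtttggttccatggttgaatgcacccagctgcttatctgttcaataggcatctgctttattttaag

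IFI6 held 3 matches, ISG15 held 2 that overlap each other, IFIT1 and IFIT3 held 2 each, and MX1 held 1. Of 16 interferon-stimulated genes listed, 10 had a RefSeq promoter entry and 9 of these held the motif, OAS1 being the exception. Some genes have several windows, and by window 12 of 16 held it, against 3.02% of all 35116 promoter windows. A match is a description of letters and not a bound site.

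The fibroblast label was checked against marker genes. Levels are given as CPM, the UMIs of a gene scaled to a pool total of 1000000, which counts molecules and is not scaled by gene length. ANPEP, a surface aminopeptidase, stood at 409 and 447 CPM in pools A and B, and COL1A1, a chain of type I collagen, at 752 and 905. The intermediate filament gene VIM reached 10714 and 11607 CPM, and the mesenchymal transcription factor genes OSR2 and TWIST2 reached 342 and 358 and 631 and 656. All 5 fibroblast markers were thus expressed in both pools. Markers of other cell types were mostly below 1 CPM in the mean of the pools: 5 of 7 for keratinocytes, 6 of 6 for endothelium, 5 of 6 for melanocytes, 4 of 6 for immune cells and 4 of 5 for Schwann cells. KRT5, KRT1, CDH5, MLANA, CD3E and SOX10 had no UMI in either pool. The exceptions above 10 CPM were KRT10 (277 and 286), CD68 (92.6 and 91.9) and MITF (11.8 and 13.05). Of 6 smooth muscle and pericyte markers measured, CSPG4 (13.8 and 14.5) and LMOD1 (32.5 and 30.4) exceeded 10 CPM and MYH11 stood at 0.160 and 0.208. The 7 pluripotency markers summed to 2.85 and 2.50 CPM.

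Whether the cells were resting was less clear, since other cell cycle genes were present. Summed over 34 G2 and M genes, double-negative cells carried 665 and 637 CPM in pools A and B, cells just outside the threshold with 1 UMI carried 882 and 842, and cells with 2 or more carried 5684 and 5332. Summed over 25 S phase genes, the values were 474 and 473 CPM, 570.0 and 577 CPM and 1603 and 1563 CPM in the same order. The 1108 and 875 cells with 1 UMI thus lay nearer to the double-negative cells than to the 1542 and 1320 cells with more. A UMI of the mitotic kinase gene CDK1 was seen in 7.07 and 9.14% of double-negative cells and in 40.99 and 39.2% of cells with 2 or more UMIs of the rule's genes. TYMS, the thymidylate synthase of S phase, had a UMI in 60.2 and 65.9% of double-negative cells and in 94.7 and 95% of the latter. No cell type that lacks these genes was at hand as a background for such shares. Only 712 and 416 double-negative cells also lacked CDK1, CCNB1, BIRC5, TYMS and RRM2. Of 32 cell cycle brakes, 21 were higher and 9 lower in double-negative than in remaining D0 cells of both pools, against 4447 higher and 5945 lower of 12458 genes at 1 CPM or more. TXNIP (log2 ratios of 0.35 and 0.29) and ZMAT3 (0.34 and 0.39) were among the higher and CDKN2D (-1.08 and -1.06) among the lower. The CDK inhibitor gene CDKN1A stood at 331, 323 and 328 CPM at 0, 1 and 2 or more UMIs in pool A and at 354, 343 and 319 in pool B. The G1 cyclin gene CCND1 stood at 542, 582 and 453 CPM and at 505, 521 and 421. The data therefore do not establish that these cells were at rest, and they are named by the rule.

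**Figure D1:**
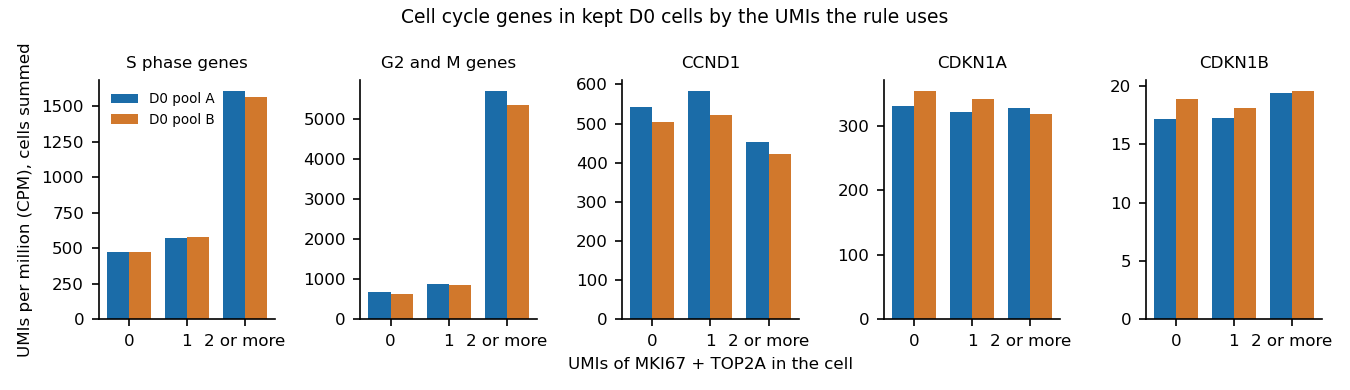
CPM (y axes, from 0) of the S phase list, the G2 and M list, CCND1, CDKN1A and CDKN1B in kept D0 cells with 0, 1 and 2 or more UMIs of MKI67 plus TOP2A (x axes), with a bar for each pool. In pool A, G2 and M genes summed to 665 CPM at 0 UMIs and 5684 CPM at 2 or more, and CDKN1A lay between 323 and 331.

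Double-negative cells made up 56.9% of kept cells in pool A (exact binomial 95% interval 55.6 to 58.1) and 52.6% in pool B (51.2 to 54.1), intervals that cover counting error only. Depth moved with the class: the median was 22747 and 27435 UMIs per double-negative cell and 25608.5 and 29871 in the remaining D0 cells. With each cell thinned to 10000 UMIs, 71.1% and 69.5% of cells had no UMI of either gene. At full depth the share ranged from 4.46% to 46.5% in the 14 later pools, whose double-negative cells had medians of 19842.5 to 50678.5 UMIs. With cells thinned to 10000 UMIs, the share in the later pools ranged from 17.7% (D15 A) to 68.5% (D5 A). The D0 cells had medians of 4164 and 4631 genes. The D0 pools shared 34 cell barcodes, 0.720% of the smaller library.

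Ribosomal protein and mitochondrial genes aside, the most abundant transcripts were a nuclear RNA and calcium-binding and cytoskeletal genes. MALAT1, a nuclear long non-coding RNA, led with 43402 and 41639.5 CPM. It was followed by the calcium-binding S100A6 (23811 and 23145 CPM), the galectin gene LGALS1 (20969 and 20310.5), VIM, and the actin-binding thymosins TMSB10 (9685 and 9894) and TMSB4X (8230.3 and 8274). Next stood the elongation factor gene EEF1A1, S100A4, GAPDH, the ferritin chains FTL and FTH1, TPT1, CD63, ACTB, S100A11, ACTG1, S100A10, MYL6, SH3BGRL3, SERF2, GNB2L1, the caveolin gene CAV1, B2M, ANXA2 and ADIRF, from 7634 and 8260.1 CPM for EEF1A1 to 2092 and 2028 for ADIRF. These 25 genes held 18.8% and 18.6% of all UMIs. Ribosomal protein genes held 26.1% and 26.2%, and the 13 mitochondrial genes 3.11% and 3.41%.

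Matrix and secreted genes came below these. Of 43 collagen and matrix genes, 41 exceeded 10 CPM. The highest were COL1A2 (1058 and 1178 CPM), the collagen-binding proteoglycan genes LUM (1174 and 1033) and DCN (507 and 529), COL1A1, COL6A2 (661 and 664), COL6A1 (579 and 628) and FBLN1 (557 and 553). Among secreted signals the insulin-like growth factor binding proteins IGFBP5 (1252 and 1239 CPM), IGFBP6 (937 and 903), IGFBP7 (884 and 944) and IGFBP4 (543 and 631) and the WNT antagonist gene SFRP1 (943 and 967) were highest. Among proteases and their inhibitors it was TIMP1 (1894 and 1810.3 CPM), an inhibitor of metalloproteinases, and MMP1 (1787 and 1569.7), the interstitial collagenase. Of 22 cytokines and chemokines, 3 exceeded 10 CPM: CXCL12 (76.2 and 84.8), CSF1 (11.3 and 12.4) and CCL2 (11.97 and 11.6). The neutrophil chemokine gene CXCL8 stood at 0.137 and 0.194.

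The genes that differed most from cell to cell were largely the same in both pools. Variability was measured in 3418 and 2405 cells thinned to 10000 UMIs as the variance over the mean of a gene, divided by the median of that quantity among genes of like mean, over 6460 genes. A ratio of 1 is that of a typical gene. The most expressed genes shared 1 divisor, since too few genes of like mean lie above them. In pool A it served genes with means from 35.9 UMIs (ACTB) to 439 (MALAT1). The part of abundance in their ratios was not tested. Of the 100 highest genes in each pool, 89 were shared, and 84 genes had a ratio above 2 in both. MALAT1 ranked first (46.3 and 47.6), with medians of 410.5 and 391 UMIs per cell and highest cells of 2370 and 2485. MMP1, on chromosome 11 of GRCh38 (102789401 to 102798160, minus strand), came second (18.5 and 17.4). Its medians were 10 and 8 UMIs, its highest cells held 256 and 220, and 1.70 and 3.49% of cells had none.

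Some variable genes were empty in most cells and high in few. IFIT2, an interferon-stimulated gene that limits translation, had no UMI in 94.7 and 94.4% of cells and up to 45 and 49 UMIs in a cell, and the top 1% of cells held 57.4 and 57.7% of its UMIs (ratio 12.9 and 12.8). IFI27 (8.70 and 8.43), IFIT3 (4.62 and 4.44), the cystatin gene CST1 (4.83 and 4.80), IGFBP3 (5.77 and 4.13) and the protease inhibitor gene TFPI2 (3.96 and 4.24) were of the same kind, with no UMI in 82.2% to 90.1% of pool A cells. Others were graded, with UMIs in most cells. IGFBP5 (13.2 and 12.6) had medians of 6 and 6 UMIs and none in 10.9 and 10.3% of cells. The alpha-tubulin gene TUBA1B (8.62 and 8.50) had medians of 8 and 7, and KRT19, a keratin of simple epithelia (9.28 and 8.17), medians of 2 and 2. ISG15, a ubiquitin-like interferon target (13.8 and 11.99), combined both, with medians of 2 and 1 UMIs and 20.8 and 20.8% of its UMIs in the top 1% of cells.

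The other 13 of the 25 most variable genes had ratios from 3.81 to 6.09. They were the protease inhibitors SERPINE2 and TIMP1, the aldose reductase gene AKR1B1, FTL, the metal-binding MT2A (4.82 and 5.76), the fatty acid binding protein gene FABP3 (4.72 and 5.01), IGFBP2, the lipocalin gene APOD (4.18 and 4.72), CCND1 (4.52 and 4.17), TMSB4X, S100A6, S100A4 and VIM. The identity genes TWIST2 (0.98 and 0.97) and ANPEP (1.31 and 1.33) were near the typical ratio. OSR2 varied more (2.63 and 2.67), with no UMI in 15.7 and 16.5% of cells.

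**Figure D2:**
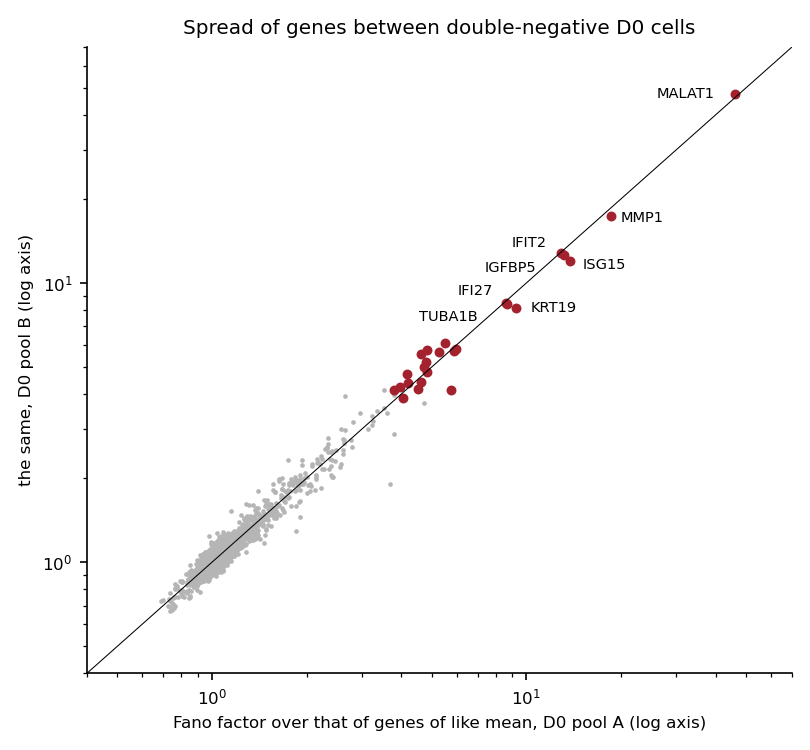
Each point is a gene, with its variability ratio in double-negative cells of pool A (x axis) and pool B (y axis), both log axes. The 25 most variable genes (red) lie near the line of equal values, from MALAT1 (46.3 and 47.6) down to VIM (3.81 and 4.14).

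The same genes varied in the remaining D0 cells. Over 6312 genes measured in all classes, the 24 measured members of the 25 were each among the 100 most variable in both pools of the remaining cells. Double-negative and remaining cells shared 78 of their 100 most variable genes in pool A and 76 in pool B. Pools A and B shared 88 for double-negative cells and 90 for the remaining cells.

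A small set of cells carried a large part of the interferon signal. Cells with a UMI of at least 8 of the 16 interferon-stimulated genes, after thinning to 10000 UMIs, are called interferon-high. They numbered 59 of 3418 in pool A (1.73%, exact binomial 95% interval 1.32 to 2.22) and 30 of 2405 in pool B (1.25%, 0.843 to 1.78) and held 21.5% and 17.4% of the UMIs of the list. The class was defined by these genes, so their levels in it are a description. ISG15 averaged 35.3 and 34.8 UMIs in interferon-high cells and 1.89 and 1.92 in the others, and IFI6, a mitochondrial interferon target, 13.6 and 14.03 and 1.55 and 1.37. MX1, an antiviral GTPase, had a UMI in 94.9 and 83.3% against 4.08 and 3.92% of cells. The antiviral RSAD2 was seen in 10.2 and 6.67% against 0.179 and 0.337%, with means of 0.186 and 0.0667 against 0.00179 and 0.00337 UMIs.

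Depth and mitochondrial share were near those of other cells. Interferon-high cells had medians of 22141 UMIs against 22928 in pool A and 29501.5 against 27565 in pool B. Their median mitochondrial share was 2.95 and 3.29% against 2.97 and 3.35%. The interferon gene IFNB1 had 1 UMI in pool A and 0 in pool B. With a limit of 5 genes in place of 8, 341 cells (9.98%) and 201 cells (8.36%) were counted.

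Interferon-high cells were also present among the remaining D0 cells, at 38 of 2632 (1.44%) and 31 of 2179 (1.42%). In the double-negative cells of the 14 later pools they made up 0 to 0.575%, below both D0 pools, with 6 pools at 0 whose upper 95% limits ran from 0.725% to 12.3%. Mean UMIs of the list per thinned cell were 6.21 and 5.67 at D0 and 2.09 to 3.97 later. The difference was not tested, since the limit of 8 genes was set after D0 cells had been seen.

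**Figure D3:**
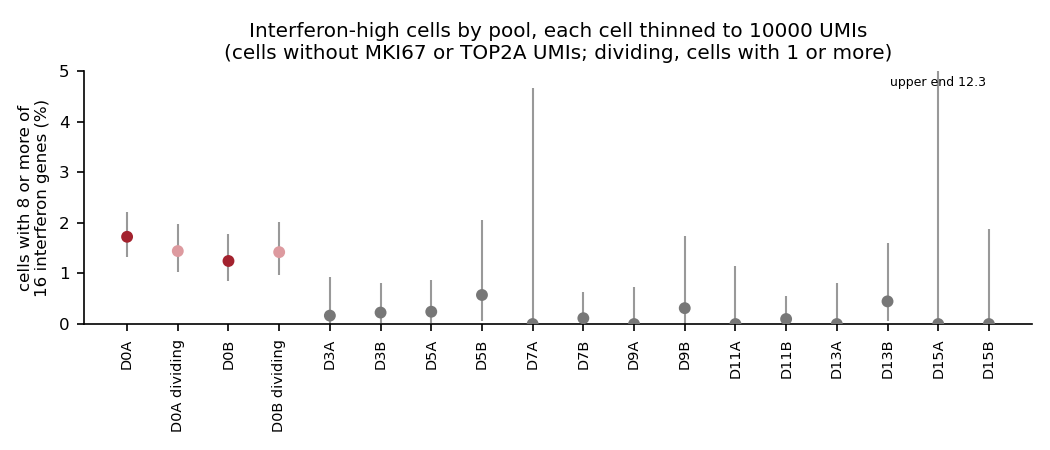
Percent of cells (y axis) with a UMI of 8 or more of 16 interferon-stimulated genes in each pool (x axis), with exact 95% binomial bars for counting error. Double-negative D0 cells stood at 1.73% and 1.25%, the remaining D0 cells (marked dividing) at 1.44% and 1.42%, and later pools (grey) at 0.575% or less.

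Variable genes moved together in groups that recurred in both pools. Groups were formed among the 100 most variable genes by their correlations over the 3418 cells of pool A and then read in the 2405 cells of pool B. Cells of a pool share 1 library, so r is given as a description. IFIT1, IFIT2 and IFIT3 had a mean pairwise r of 0.288 and 0.313 in pools A and B, and ISG15, IFI6 and IFI27 one of 0.276 and 0.278, against 0.00847 and 0.012 over all pairs of the 100 genes. The summed scores of both interferon groups correlated at 0.37 and 0.37.

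The largest group joined cytoskeletal, chromatin and glycolytic genes. Its 15 members were TUBA1B, TUBA1A, ACTB, ACTG1, ANXA2, HSP90AA1, PTMA, H2AFZ, HMGN2, HMGB1, ENO1, LDHA, FDPS, KIAA0101 and PTTG1 (mean r 0.285 and 0.305). A group of 12 joined MALAT1 and NEAT1, both nuclear RNAs, with COL1A1, COL3A1, COL6A1, COL6A2, LUM, SERPINE2, TIMP1, APOD, IGFBP7 and CST3 (mean r 0.244 and 0.244). The summed scores of these groups ran against each other, with r = -0.58 in pool A and -0.47 in pool B. The score of the first also moved with the number of genes per cell (r = 0.402 and 0.346) and against the ribosomal share (-0.358 and -0.424). In kept D0 cells, its members H2AFZ and TUBA1B rose with the UMIs of the rule's genes. H2AFZ went from 403 and 407 CPM at 0 UMIs to 1700 and 1659 at 2 or more. TUBA1B went from 1314 and 1175 to 3245 and 2961. The part of gene number, ribosomal share and cell cycle in the group and in the opposition was not tested.

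Smaller groups were as stable between pools. DKK1, CITED2, ADM, CYR61 and CTGF, the last of which are secreted matricellular proteins, had a mean r of 0.247 and 0.244. TMSB4X, TMSB10, TAGLN and C12orf75 had 0.309 and 0.31, IGFBP5, IGFBP6, ADIRF and SH3BGRL3 had 0.29 and 0.299, S100A6, LGALS1 and VIM had 0.285 and 0.294, and OSR2, SOX4 and PLPP3 had 0.243 and 0.247. The S100A6 group moved against the mitochondrial share (-0.261 and -0.254) and the genes per cell (-0.274 and -0.248). The thymosin group moved with the log UMI count of a cell (0.329 and 0.243), as did the IGFBP5 group (0.241 and 0.280), and MALAT1 with the mitochondrial share (0.219 and 0.198). The part of these in the groups was not tested. The OSR2 group ran with the MALAT1 and collagen group (0.43 and 0.46) and against the thymosin group (-0.43 and -0.45). OSR2 itself ran with LUM (0.25 and 0.26) and against CCND1 (-0.27 and -0.29). CCND1 moved with the log UMI count of a cell (0.352 and 0.304). FABP3 ran with the sterol enzyme genes FDPS (0.32 and 0.31) and MVD (0.28 and 0.31). MALAT1 and NEAT1 were a strong pair (0.64 and 0.71), while MMP1, for all its range, had weak partners, such as TIMP1 (0.20 and 0.19) and STC1 (0.23 and 0.18).

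**Figure D4:**
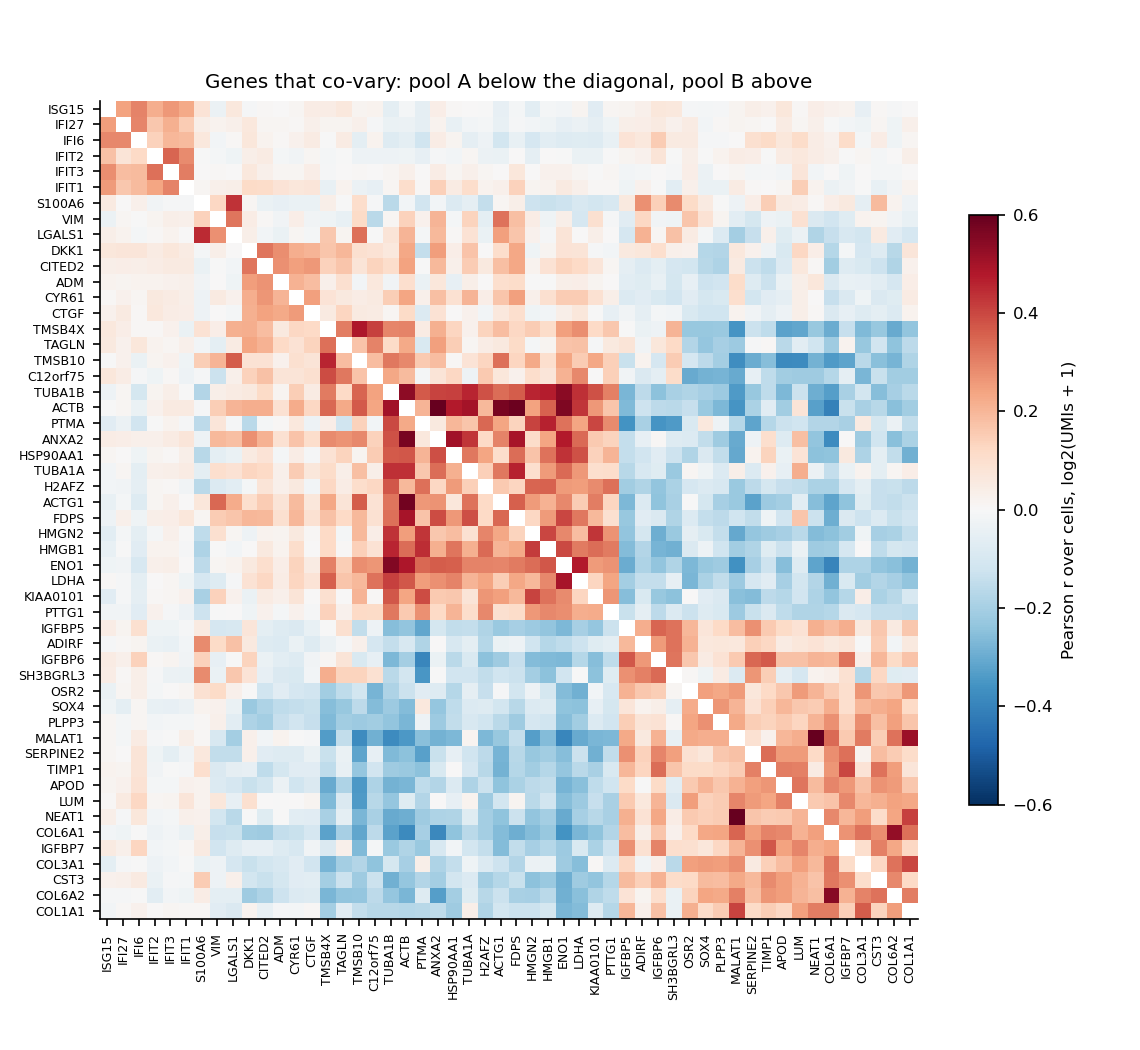
Pearson r over cells (colour) between the genes of the co-varying groups (both axes), with pool A below the diagonal and pool B above it. The blocks of the tubulin and actin group (mean r 0.285 and 0.305) and of the MALAT1 and collagen group (0.244 and 0.244) recur on both sides.

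MT2A, a metallothionein that binds zinc and copper, ran with LDHA (0.32 and 0.28) and ENO1 (0.32 and 0.28) and against MALAT1 (-0.35 and -0.36). Its promoter is shown for the metal response elements in it. The window lies at chr16:56608334-56608583 (plus strand, GRCh38.p14, RefSeq), and capitals mark TGCACNC or TGCGCNC on either strand.
MT2A: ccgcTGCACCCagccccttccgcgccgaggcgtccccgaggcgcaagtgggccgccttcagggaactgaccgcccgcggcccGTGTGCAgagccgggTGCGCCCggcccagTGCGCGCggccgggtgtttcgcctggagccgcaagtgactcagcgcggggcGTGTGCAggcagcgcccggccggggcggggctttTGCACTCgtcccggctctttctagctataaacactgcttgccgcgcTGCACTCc

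It held 7 matches. Each of the 4 listed metallothionein genes with a RefSeq promoter (MT1H, MT1X, MT2A and the zinc exporter gene SLC30A1) held at least 1, as did 24.8% of all windows. At D0, MT2A stood at 1026 and 1041 CPM and MT1E at 211 and 216, while MT1G stood at 0.756 and 0.804.

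Double-negative and remaining D0 cells were split by measured values, so their differences are a description with no test. Those towards higher levels in double-negative cells were small among genes at 50 CPM or more. By the log2 ratio of CPM in pools A and B, the genes highest in double-negative cells were APOD (0.64 and 0.66), HIST1H2AC (0.58 and 0.52), ARMC9 (0.57 and 0.51), the serpin gene SERPINF1 (0.56 and 0.50), the coagulation factor gene F10 (0.53 and 0.45), the sterol reductase gene TM7SF2 (0.45 and 0.51), the microfibril gene MFAP4 (0.47 and 0.47), LUM (0.48 and 0.44), CTGF (0.47 and 0.44) and C10orf54 (0.45 and 0.46). The lowest were mitotic genes, led by UBE2C (-4.47 and -4.26), CDC20 (-4.23 and -4.15), CENPF (-4.14 and -4.22) and GTSE1 (-4.16 and -4.05), followed by PRC1, NUSAP1, CCNB1, ASPM, PBK and CCNB2. Genes of other kinds were lower too, such as HNRNPAB (-1.24 and -1.26), TOMM40 (-0.82 and -0.83) and NOP16 (-0.64 and -0.66). Of 43 collagen and matrix genes, 39 were higher in double-negative cells of both pools and 3 lower. Over all 12458 genes at 1 CPM or more, 4447 were higher and 5945 lower in both pools.

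Pools A and B were close to each other. Of 6712 genes at 10 CPM or more in either, 0 differed by more than 2-fold, and the median absolute log2 ratio was 0.0671. Each pool is 1 sample, so no test was made. Among genes at 50 CPM or more in the higher pool, the widest ratios towards pool A were those of the tetraspanin gene CD81 (337 and 258 CPM), DYNC1I2 (174 and 134), PSMD2 (128 and 103), ECM1 (172 and 143) and RARS (67.5 and 56.1). Towards pool B they were AC090498.1 (49.3 and 61.3), KLF4 (53.6 and 66.5), WNT5A (58.02 and 71.4), ID1 (61.6 and 75.5) and COL5A1 (45.98 and 56.1). Between the double-negative cells of both pools of a later day, 4 to 504 genes at 50 CPM or more differed by over 2-fold, against 0 of 2224 at D0. Later pools held 28 to 1012 such cells, against 3492 and 2439 at D0, so counting error differed. Chi-square over degrees of freedom between the pools of a day was 9.35 at D0, 8.09 at D9 and 9.35 at D15. It was 23.8 to 142 on the other days. This ratio grows with the UMIs summed, so it does not put days of unlike totals on 1 footing. The median absolute log2 ratio at 50 CPM or more was 0.0505 at D0, 0.0800 at D9 and 0.222 at D15. It was 0.218 to 0.525 on the other days.

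The spread between D0 cells was at the low end of the series. It was measured as 1 minus the mean correlation between pairs of 200 cells thinned to 5000 UMIs, over 2000 variable genes, with 77 cells in D7 A and 28 in D15 A, which held no more. D0 stood at 0.216 and 0.214. The later pools lay between 0.207 and 0.319 around a median of 0.261, with 1 pool, D3 B, below D0. The test that follows shuffled single pools as if exchangeable and ignored that both D0 pools were of 1 day. Its p therefore does not measure D0 against other days. The difference in means, D0 minus later, was -0.0502 and missed the threshold (exact two-sided permutation test over 120 arrangements, p = 0.0583). With cells thinned to 10000 UMIs it was -0.0544 (exact permutation p = 0.0417), and without D7 A and D15 A it was -0.0506 (exact permutation p = 0.0769 over 91 arrangements).

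D0 cells were then compared with double-negative cells of other days. The filter was the same on each day but applied at full depth, so it was stricter in deeper cells. Against D3, 510 of 11834 genes were higher at D3 (4.31% of those tested) and 474 were higher at D0 (4.01%), at an adjusted p below 0.01 and a log2 change beyond 0.25 in edgeR's quasi-likelihood test on UMIs summed per pool. The calls leaned on single pools: 132 genes were called without pool A of D0, 121 without pool B of D0, and 408 without pool A of D3. D3 pools held 600 and 899 double-negative cells, with medians of 40457.5 and 22415 UMIs. Genes named next kept their call without any 1 pool of D0 or D3 unless stated. With only the 4 pools of D0 and D3 in the fit 1 gene was called, AES. With 5 other cycle genes also at 0 UMIs, DUSP1, DKK1, KRT19, FOS, TXNIP, MLF1, KRT18 and HNRNPAB lost their call. So did CCL2, IFI44L, GINS2, THBS1 and L1TD1, which are described with their lists. That setting left only 38 and 43 cells in D3 pools A and B.

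Genes that fell by D3 included transcription factors, signal regulators and secreted proteins. OSR2 went from 342 and 358 CPM at D0 to 32.7 and 24.2 at D3 (fell by 3.66 on the log2 scale, SE 0.33, adjusted p = 2.13e-05). DUSP1, a phosphatase that inactivates MAP kinases, went from 231 and 233 to 36.9 and 17.9 (fell by 3.14 on the log2 scale, SE 0.47, adjusted p = 0.000777). DKK1, a secreted WNT antagonist, went from 254 and 252 to 35.99 and 24.3 (fell by 3.12 on the log2 scale, SE 0.40, adjusted p = 0.000264). Naming required that no D3 pool overlap a D0 pool, so the lack of overlap in these genes is no further support. The stromal chemokine gene CXCL12 went from 76.2 and 84.8 to 11.03 and 10.1 CPM (fell by 2.97 on the log2 scale, SE 0.24, adjusted p = 1.36e-05). ID2, an inhibitor of helix-loop-helix factors, went from 89.01 and 94.7 to 11.9 and 13.6 (fell by 2.89 on the log2 scale, SE 0.32). KRT19 went from 535 and 485 to 98.4 and 65.2 (fell by 2.69 on the log2 scale, SE 0.28). The same condition of no overlap applied to these. The transcription factor gene CEBPD went from 90.5 and 87.3 to 17.7 and 13.7 (fell by 2.54 on the log2 scale, SE 0.34). FOS, a subunit of AP-1, went from 468 and 498 to 104 and 96.05 (fell by 2.31 on the log2 scale, SE 0.25).

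The calls of 2 further genes rested on 1 pool. KLF4, one of the transfected factors, went from 53.6 and 66.5 to 8.31 and 4.11 CPM (fell by 3.32 on the log2 scale, SE 0.53, adjusted p = 0.00111), with an adjusted p in edgeR of 0.0134 without pool B of D0. TXNIP, which binds thioredoxin, went from 100 and 87.8 to 13.6 and 24.9 CPM (fell by 2.32 on the log2 scale, SE 0.36, adjusted p = 0.00101), with one of 0.013 without pool A of D0.

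Genes that rose by D3 included a corepressor and genes of ribosome assembly and mitochondrial import. AES, a corepressor of the Groucho family, went from 137 and 158 CPM at D0 to 5334 and 4934 at D3 (rose by 5.08 on the log2 scale, SE 0.29, adjusted p = 8.99e-07). In the later pools AES ran from 84.0 through a median of 5134 to 12004.5 CPM, so the lowest lay below both D0 pools. Whether transfected mRNA contributed to the AES counts was not tested. NOP16, a nucleolar protein of ribosome assembly, went from 9.80 and 9.90 to 55.8 and 61.7 (rose by 2.54 on the log2 scale, SE 0.22, adjusted p = 2.13e-05). TOMM40, the mitochondrial import channel, went from 20.1 and 20.4 to 112 and 85.7 (rose by 2.24 on the log2 scale, SE 0.25). These genes too were named only where no D3 pool overlapped a D0 pool. GGCT went from 15.3 and 15.8 to 61.4 and 64.1 (rose by 1.97 on the log2 scale, SE 0.22), MLF1 from 12.4 and 11.4 to 77.5 and 55.2 and RP11-395G23.3 from 7.56 and 7.18 to 74.7 and 76.7. RP11-148B6.1 was all but absent at D0 (0.0687 and 0 CPM) and stood at 58.6 and 56.5 at D3. The calls of the chemokine gene CXCL1 (1.52 and 1.77 against 129 and 75.7 CPM), KRT18 (61.3 and 60.05 against 355 and 202) and HNRNPAB (30.6 and 29.6 against 72.03 and 167) were lost without either D0 pool, with adjusted p in edgeR of up to 0.0118, 0.0243 and 0.0825, and that of HNRNPAB also without pool B of D3.

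Against D3 to D15 together, 2342 of 11834 genes were higher at D0 (19.8%) and 1699 lower (14.4%). Without pool A of D0 1887 genes were called, and without pool B 1824. Both D0 pools stood at 50 CPM or more and above all 14 later pools for 442 genes (3.74%) that passed the test. Log2 changes are later minus D0, so a negative value is higher at D0. OSR2 was furthest above, with later pools from 0 through a median of 11.6 to 40.1 CPM (-5.09, SE 0.18, adjusted p = 1.63e-09). SLC38A11, of an amino acid transporter family, stood at 92.5 and 90.3 CPM at D0 and from 0 through a median of 3.93 to 27.9 later (-4.78, SE 0.20). KLF4 ran from 0.230 through a median of 4.25 to 13.4 CPM later (-4.23, SE 0.31). OSR2 and SLC38A11 thus had no UMI in at least 1 later pool. Low ends of later ranges can rest on few UMIs, since D15 A held 28 double-negative cells with 973710 UMIs in all. ADIRF stood at 2092 and 2028 CPM and from 7.19 through a median of 147 to 1015 later (-3.92, SE 0.20). FABP3 stood at 647 and 624 CPM and from 13.4 through a median of 44.3 to 204 later (-3.87, SE 0.17). Both also varied between D0 cells.

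Further genes far above the later pools were of diverse kinds. CIT, the citron kinase of cytokinesis, stood at 68.2 and 74.4 CPM against 1.03 to 27.5 later (-3.66, SE 0.26), and AHNAK2 at 59.3 and 58.9 against 2.03 to 26.6 (-3.36, SE 0.17). SCN9A, a voltage-gated sodium channel, stood at 63.6 and 57.5 against 2.87 to 28.6 (-3.33, SE 0.21). An uncharacterised gene, identifier ENSG00000262202, stood at 65.7 and 62.3 against 2.19 to 18.8. The secreted pentraxin gene PTX3 stood at 169 and 156 against 0 to 106 (-3.25, SE 0.32). All 10 calls held without either D0 pool. Among fibroblast markers, ANPEP (-2.70, SE 0.32) and TWIST2 (-2.47, SE 0.22) were also higher at D0. VIM was called higher at D0 but not without pool B (adjusted p in edgeR 0.0112), and COL1A1 was called higher later but without either pool was not (up to 0.102).

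**Figure D5:**
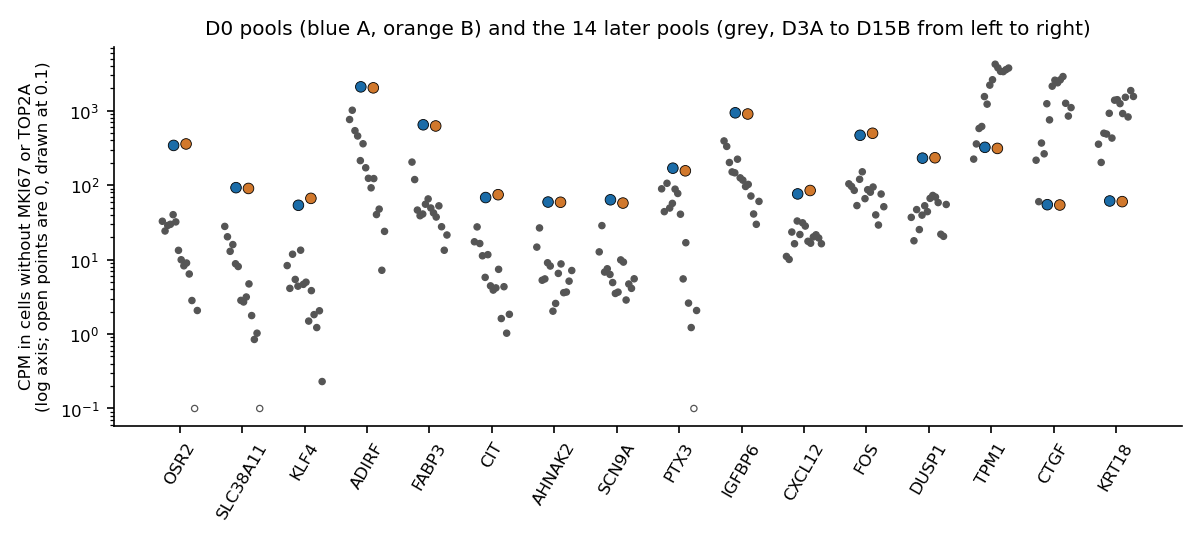
CPM in double-negative cells (y axis, log) of 16 genes (x axis) in the D0 pools and the 14 later pools (grey). The genes from OSR2 (342 and 358 CPM at D0) to DUSP1 (231 and 233) lay above all later pools, CTGF (54.6 and 54.1) and KRT18 (61.3 and 60.05) below all of them.

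Immediate early genes, which serum and stress switch on within minutes, were high at D0. Of all genes tested, 4.01% fell and 4.31% rose by D3, and 19.8% were higher and 14.4% lower at D0 than later. Of 23 tested, 11 fell and 2 rose by D3 (median log2 change -1.25, against -0.09 over all genes), and 18 were higher and 2 lower at D0 than later (median -1.45, against -0.07). Without 1 pool, 2 to 8 of the falls by D3 were called (4 without pool A and 2 without pool B of D0, 7 without pool A and 8 without pool B of D3), and 13 of the 18. FOS ran from 29.1 through a median of 82.8 to 151 CPM in later pools against 468 and 498 at D0 (-2.81, SE 0.15, adjusted p = 2.24e-08). FOSB stood at 169 and 187 against 7.50 to 84.3 later (-3.08, SE 0.20), JUN at 462 and 442 against 61.9 to 232 (-1.76, SE 0.15) and EGR1 at 128 and 142 against 7.19 to 115 (-1.83, SE 0.25). Of 21 listed genes with a RefSeq promoter, 2 (EGR1 and EGR2) held a CArG box, the site of serum response factor, that is 2 of their 28 windows, against 1.16% of all windows.

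Interferon-stimulated genes were higher at D0 in the sums as well. Of 14 tested, 5 fell and 0 rose by D3 (median -1.55, against 4.01% and 4.31% of all genes), and 12 were higher and 0 lower at D0 than later (median -1.90, against 19.8% and 14.4%). Without 1 pool, 1 to 4 of the 5 (1 without pool A and 2 without pool B of D0, 2 without pool A of D3) and 7 of the 12 were called. IFI44L went from 5.91 and 6.39 to 0.699 and 0.850 CPM at D3 (fell by 3.03 on the log2 scale, SE 0.28). IFI6 stood at 178 and 157 CPM against 16.2 to 66.9 later (-2.34, SE 0.15), with no overlap. IFIT1 stood at 37.2 and 33.2 against 1.03 to 43.7 (-2.14, SE 0.32), lost its call with the 5 other cycle genes at 0 UMIs, and was as high as the lower D0 pool or higher in both pools of D5. ISG15 (244 and 239.9 against 116 to 279) was called but not without either D0 pool (adjusted p in edgeR up to 0.0643).

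Of 31 cell cycle brakes tested, 18 were higher and 4 lower at D0 than later (median -0.86), against 19.8% and 14.4% of all genes, so that the share lower was near that of all genes. Of the 18, 11 and 9 were called without pool A and pool B of D0. CDKN2C, an inhibitor of CDK4 and CDK6, stood at 50.1 and 51.1 CPM against 1.38 to 21.2 (-3.04, SE 0.18). CDKN1A stood at 331 and 354 against 81.97 to 256 (-1.34, SE 0.22) and CDKN1B at 17.2 and 18.9 against 6.37 to 11.03 (-1.18, SE 0.17). The Notch target HES1, in the same list, went from 1.72 and 2.26 CPM to 20.9 and 29.9 at D3 (rose by 3.64 on the log2 scale, SE 0.41). By D3, 7 brakes fell and 1 rose, against 4.01% and 4.31% of all genes, with 0 of the falls called without pool A of D0 and 1 without each other pool.

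S phase genes were lower at D0 than in later cells that passed the same filter. Of 25 tested, 9 rose and 0 fell by D3 (median 1.22), against 4.31% and 4.01% of all genes, and 16 were lower and 1 higher at D0 than later, against 14.4% and 19.8%. Of the 9, 2 were called without either D0 pool and 5 without pool A of D3. GINS2, of the replicative helicase, stood at 4.18 and 3.98 CPM at D0 and 22.7 and 23.3 at D3 (rose by 2.45 on the log2 scale, SE 0.28). Of 32 G2 and M genes, 2 rose by D3, a share near that of all genes, and 15 were lower at D0 than later, of which 2 and 3 were called without pool A and pool B. At D3 the G2 and M genes had a median log2 change of 1.14, against -0.09 over all genes. Of the 32, 22 were higher at D3 with an unadjusted p below 0.05 in edgeR, and 0 were lower. DESeq2 called 10 of them higher at D3, against 1012 of all 11834 genes. Depth differs between pools as given, and its part was not tested.

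Secreted signals moved both ways, where 19.8% of all genes were higher and 14.4% lower at D0. Of 44 tested, 15 were higher and 17 lower at D0 than later, of which 8 and 6 of the 15 and 11 of the 17 were called without pool A and pool B. IGFBP6 stood at 937 and 903 CPM against 29.8 to 393 later (-3.06, SE 0.17) and SFRP1 at 943 and 967 against 94.5 to 544 (-1.73, SE 0.24). The heparin-binding factor gene MDK stood at 88.99 and 96.1 against 95.1 to 671 (1.90, SE 0.16), and IGFBP2 at 156 and 162 against 112 to 1132 (1.55, SE 0.24). Of 28 growth factor receptors, 9 were higher and 3 lower at D0, of which 7 of the 9 were called without either D0 pool and of the 3 FLT1 alone. The PDGF receptor gene PDGFRA stood at 130.0 and 146 against 12.5 to 74.7 (-2.28, SE 0.19), EGFR at 34.1 and 40.2 against 5.36 to 30.03 (-1.82, SE 0.20), and the hyaluronan receptor gene CD44 at 607 and 648 against 34.8 to 373 (-2.38, SE 0.19). Of 15 cytokines and chemokines, 2 were higher at D0, CXCL12 and CSF1, and 8 lower. CCL2, which attracts monocytes, stood at 11.97 and 11.6 CPM at D0 and 62.5 and 44.8 at D3 (rose by 2.14 on the log2 scale, SE 0.25).

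Against all later days, matrix and contractile genes were more often called lower than higher at D0, where 14.4% and 19.8% of all genes were so called. Of 43 collagen and matrix genes, 14 were lower and 5 higher at D0 than later, of which 4 of the 14 and 1 to 3 of the 5 were called without a D0 pool (1 without pool A). FN1, fibronectin, stood at 182 and 207 CPM against 119 to 2188 later (1.53, SE 0.18) and the elastin gene ELN at 3.93 and 4.73 against 2.37 to 417 (3.04, SE 0.38). DCN stood at 507 and 529 against 11.3 to 464 (-2.09, SE 0.23). By D3, 6 fell and 0 rose, against 4.01% and 4.31% of all genes, among them THBS1, a matricellular protein (208 and 227 to 57.6 and 60.1 CPM, fell by 1.92 on the log2 scale, SE 0.25), the 1 gene of them called without pool A of D0. Of 20 contractile genes, 0 were called by D3 in edgeR, where 2 higher at D3 and 5 higher at D0 had an unadjusted p below 0.05, and DESeq2 called 1 in each direction. Against all later days 7 were lower and 0 higher at D0. The tropomyosin gene TPM1 stood at 322 and 311 CPM against 224 to 4212 (2.22, SE 0.21), smooth muscle actin ACTA2 at 106 and 107 against 70.3 to 2521 (2.09, SE 0.31), and TAGLN at 289.5 and 293 against 143 to 6318 (2.07, SE 0.25). CTGF stood at 54.6 and 54.1 against 60.02 to 2874 (3.92, SE 0.45).

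Of 19 genes of cholesterol synthesis, 13 were higher and 1 lower at D0 than later (median -0.91), against 19.8% and 14.4% of all genes, of which 7 and 9 of the 13 were called without pool A and pool B. INSIG1, which holds back the sterol-sensing machinery, stood at 191 and 197 CPM against 20.5 to 189.8 (-1.87, SE 0.16), FDPS at 1152 and 1049 against 217 to 1016 (-1.48, SE 0.13) and the lanosterol synthase gene LSS at 119 and 129.6 against 15.1 to 64.3 (-2.31, SE 0.14). Of 13 HOX genes tested, 6 were higher and 0 lower at D0, against the same shares, of which only HOXA9 and HOXA13 were called without either pool. HOXA13, a gene of distal and genital identity, stood at 16.5 and 18.2 against 1.15 to 9.12 (-2.05, SE 0.18). Of 9 metallothionein-list genes, 4 were lower and 1 higher at D0, against 14.4% and 19.8% of all genes, with MT1G (0.756 and 0.804 against 2.17 to 474) and MT1H called without either pool. Of 17 genes of the ATF4 and unfolded protein responses, 6 were lower at D0 and 0 higher, against the same 14.4% and 19.8%, with SDF2L1, an endoplasmic reticulum protein, at 40.6 and 40.6 CPM at D0 and 163 and 157 at D3 (rose by 1.94 on the log2 scale, SE 0.24).

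Other lists differed in how far their calls rested on 1 pool. Over all genes tested, 19.8% were higher and 14.4% lower at D0 than later, and the shares of proteases in both directions and of glycolysis genes lower at D0 were near these. Of 18 proteases and inhibitors, 4 were higher and 3 lower at D0 than later, with the metalloproteinase inhibitor TIMP2 and the cysteine protease CTSK among 3 of the 4 that were called without either D0 pool, and TIMP3 alone among the 3. Of 17 glycolysis genes, 1 was higher and 3 lower at D0, and 0 of these were called without either pool. Of 9 genes of G1 cyclins and growth, 4 were lower at D0, with CCND2, CCNE1 and CDC25A called without either pool. Of 21 other fibroblast genes, 12 were higher at D0, 9 of them without either pool, among them PDGFRA, DCN, CD44 and TWIST1, and 2 were lower, FN1 and MEOX1.

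Counts of 0 in a direction were set beside looser readings. For interferon-stimulated genes higher later, S phase genes higher at D0 than at D3, G2 and M genes, ATF4 genes and contractile genes higher at D0 than later, and HOX genes higher later, 0 had an unadjusted p below 0.05 in edgeR and 0 were called by DESeq2. Of collagen and matrix genes higher at D3, 4 had such a p and 1 was called by DESeq2.

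Pluripotency genes were at or near 0 at D0. LIN28A, one of the factors delivered, had no UMI in either D0 pool and stood at 6.76 and 37.5 CPM at D3, and SOX2 stood at 0 and 0.0416 at D0 and 1.28 and 7.70 at D3. The D3 calls of both were lost without either D0 pool, and that of SOX2 also without pool B of D3. L1TD1, a marker of pluripotent cells that was not delivered, stood at 2.18 and 1.79 at D0 and 22.8 and 42.4 at D3 (rose by 4.00 on the log2 scale, SE 0.45). Counts do not separate delivered from endogenous mRNA.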

How the data were processed

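The deposited files hold raw counts of UMIs for 33694 genes and each cell barcode in 22 libraries, which the authors made with Cell Ranger 2.2 on hg38 from droplet 3' libraries. Cell Ranger counts reads that map uniquely, so near-identical copies (alpha tubulins, actins, ferritins, metallothioneins) are uncertain. Aliquots of a pool were added, giving 16 pools, 2 on each of 8 days. A cell was kept when 1000 genes or more were detected in it and mitochondrial genes took no more than 10% of its UMIs. D0 double-negative cells held 87284086 and 72125980 UMIs in pools A and B. No doublet caller was run, and an alternative left out the 5% of cells with most UMIs.

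Counts of double-negative cells were summed per pool and the genes seen in 5% of cells or more went into edgeR 4.0.16 in R 4.3.3 (quasi-likelihood test, TMM, day as the factor, all 16 pools sharing 1 spread, Benjamini-Hochberg adjustment over 11834 genes), as D3 minus D0 and as the mean of D3 to D15 minus D0. Calls needed an adjusted p below 0.01 and a log2 change beyond 0.25. Each SE is the absolute log2 change divided by the square root of the test's F statistic, not an error fitted by the model. The scripts were tested on simulated data. Variability and correlation (log2 of UMIs + 1, average linkage at a distance of 0.8) used cells thinned to 10000 UMIs, with scipy 1.17.1, numpy 2.4.6 and pandas 2.3.3 in Python 3.11.15 (plots, matplotlib 3.10.9). Alternatives were DESeq2 1.42.0, its size factors in edgeR, no gene filter, a block, other cell rules and leaving out pools. RGS5 was not analysed here.

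The members, gene lists and named genes were chosen with earlier results of these data known. Named genes, without ribosomal protein and mitochondrial genes, were the 25 most expressed and the 25 most variable, the 10 largest rises and falls by D3 and the 10 furthest above the later days at 50 CPM or more with no overlap between pools, the 10 widest ratios to the remaining D0 cells each way, the 5 widest between pools A and B each way (both at 50 CPM or more), and members of 18 lists and of the marker lists. The limit of 8 interferon genes, the interferon motif, the comparison with variable genes of the remaining cells, the correlation partners and fits and a spread test without the 2 pools under 100 cells were chosen after the data were seen.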

Additional observations from a re-analysis of the deposited data

How the results depend on the processing

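The count of genes called against D3 was 984. It was 1805 with DESeq2, 2062 with no filter on genes, 2282 with the rule applied after thinning to 10000 UMIs, 85 with 5 other cycle genes also at 0 UMIs, and 1 with only the 4 pools of D0 and D3 in the fit. It ranged from 121 to 792 with 1 pool left out. Against all later days it was 4041, with 6714 with no filter, 2102 with the 5 cycle genes, and 1824 to 1887 without a D0 pool. The lone pool of a day is then assumed to vary like the others, and fewer cells or pools enter the last settings. The cause of the other moves was not tested. DESeq2's size factors moved the calls against D3 to 563 higher later and 419 higher at D0, and the thinned rule to 1424 and 858. Against all later days the splits were 2318 and 2290 with DESeq2 and 2751 and 2653 with the thinned rule.

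With the pool letter as a replicate block, 1225 and 4382 genes were called. Pools of the same letter deviated together for some pairs of days but not for every pair (r from -0.365 to 0.770 over 28 pairs, median 0.00418), so they are not treated as paired. Of 127 results on named genes, 0 reversed in 1613 alternatives. A sign change in an uncalled result smaller than its SE was not counted as reversed. MT2A against all later days was such a case, at -0.0109 and 0.0123 in the fits without 1 D0 pool. The other 126 results had been called, some of them named for the largest changes in these pools. The pool left out in a fit was of D0 or D3 against D3, and only of D0 against all later days. Of those called, 23 of 72 against D3 and 46 of 54 against all later days were called without any 1 pool. With only the 4 pools of D0 and D3 in the fit, 71 of 72 lost their call, and with 5 cycle genes at 0 UMIs 56 of 127 did, where 1128 cells were left of 5931. The 1128 cells are those of D0. In D3 pools A and B 38 and 43 cells were left, in D11 A 2 and in D7 A 0. The spread difference was -0.0502, -0.0544 when thinned to 10000 UMIs, and -0.0511 to -0.0493 without a D0 pool. There 15 arrangements are too few for the exact permutation test to reach the threshold. Of the 25 most variable genes, 19 to 23 recurred under the other settings.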
